A study of Mus musculus with 6 samples.

Results

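The accessible intervals of mouse chromosome 5 in Ezh2-null fibroblasts were taken as all rows of the deposited list that lie on chromosome 5. They numbered 2514 of 21835 intervals in the list. The list repeats the signal values of a called region in each interval that the region was split into, so the intervals collapsed to 2057 of 19215 called regions, over which signal is summarised. The rows were selected on passing the authors' threshold of signal, so their number and height describe the list and support nothing by themselves. The study profiled open chromatin by ATAC-seq, which uses a transposase to cut accessible DNA and tag it for sequencing, with transposition on whole cells. All samples came from line A (C2), 1 line of mouse embryonic fibroblasts immortalised with c-myc, so every group carries that oncogene. The 3 groups of 2 samples each were wild-type cells, Ezh2 -/- cells, and Ezh2 -/- cells that received Ezh2 again from the retroviral vector pMSCV-Ezh2. The list analysed here is that of the Ezh2 -/- cells. It holds 1 value per called region and none per replicate, its depth is unknown, and the other groups were not analysed here. All values are therefore descriptions of 1 list, with no fold between genotypes and no test, and the intervals on shares cover counting over genes or intervals only.

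Accessible DNA marks places where nucleosomes are moved aside, chiefly promoters, enhancers and insulator sites. Promoters rich in CpG dinucleotides are commonly open in most cell types, whereas many tissue-restricted genes have CpG-poor promoters that open only in their own tissue. Ezh2 provides the enzyme activity of Polycomb repressive complex 2, which methylates lysine 27 of histone H3 and is known for holding developmental regulators silent. Chromosome 5 carries several such regulators together with receptor tyrosine kinase genes, chromatin regulators, and tandem families of liver, mammary gland and defence genes.

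The promoters that best show the range of the list are given here on mm10 coordinates, as RefSeq holds them (GRCm38.p6), from 250 bases before to 50 bases after the start of transcription, read 5′ to 3′ on the strand of the gene, with CpG dinucleotides in capitals. They were chosen after their values were seen. Those of Ep400, Slain2 and Fam185a contain the position of 3 of the highest maxima on the chromosome, Msx1 is CpG-rich with a low signal, and Pdx1 and Alb lacked an interval.
Ep400, chr5:110770668-110770967, minus strand: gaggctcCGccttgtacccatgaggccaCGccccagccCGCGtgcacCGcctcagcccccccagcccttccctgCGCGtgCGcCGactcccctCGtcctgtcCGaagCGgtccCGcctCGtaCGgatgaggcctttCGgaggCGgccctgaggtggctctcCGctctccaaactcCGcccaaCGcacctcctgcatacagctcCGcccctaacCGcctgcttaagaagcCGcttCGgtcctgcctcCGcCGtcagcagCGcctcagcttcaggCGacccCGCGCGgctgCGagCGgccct
Slain2, chr5:72914112-72914411, plus strand: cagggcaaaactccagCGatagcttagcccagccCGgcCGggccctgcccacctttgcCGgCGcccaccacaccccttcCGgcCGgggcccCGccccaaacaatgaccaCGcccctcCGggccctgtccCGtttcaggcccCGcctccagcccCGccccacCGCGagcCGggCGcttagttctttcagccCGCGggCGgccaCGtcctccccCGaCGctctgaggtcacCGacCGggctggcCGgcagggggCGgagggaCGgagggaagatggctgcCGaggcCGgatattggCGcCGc
Fam185a, chr5:21424653-21424952, plus strand: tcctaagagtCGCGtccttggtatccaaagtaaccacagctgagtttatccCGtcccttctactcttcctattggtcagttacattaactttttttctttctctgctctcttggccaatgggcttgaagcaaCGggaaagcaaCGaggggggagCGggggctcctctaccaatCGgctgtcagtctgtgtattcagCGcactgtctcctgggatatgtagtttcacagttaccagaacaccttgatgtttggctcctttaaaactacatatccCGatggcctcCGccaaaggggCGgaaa
Msx1, chr5:37824536-37824835, minus strand: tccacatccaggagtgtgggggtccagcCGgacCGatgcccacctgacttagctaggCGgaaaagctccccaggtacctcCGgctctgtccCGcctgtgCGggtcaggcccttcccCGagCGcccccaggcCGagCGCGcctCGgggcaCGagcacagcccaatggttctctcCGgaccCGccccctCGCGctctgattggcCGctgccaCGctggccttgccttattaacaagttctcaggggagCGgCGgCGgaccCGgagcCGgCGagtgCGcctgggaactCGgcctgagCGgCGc
Pdx1, chr5:147269847-147270146, plus strand: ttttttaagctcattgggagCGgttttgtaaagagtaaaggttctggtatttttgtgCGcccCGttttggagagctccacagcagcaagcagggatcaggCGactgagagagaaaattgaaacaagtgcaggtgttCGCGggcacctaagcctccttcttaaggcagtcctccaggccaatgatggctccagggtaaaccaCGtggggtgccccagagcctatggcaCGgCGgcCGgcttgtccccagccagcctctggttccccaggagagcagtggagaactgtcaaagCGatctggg
Alb, chr5:90460620-90460919, plus strand: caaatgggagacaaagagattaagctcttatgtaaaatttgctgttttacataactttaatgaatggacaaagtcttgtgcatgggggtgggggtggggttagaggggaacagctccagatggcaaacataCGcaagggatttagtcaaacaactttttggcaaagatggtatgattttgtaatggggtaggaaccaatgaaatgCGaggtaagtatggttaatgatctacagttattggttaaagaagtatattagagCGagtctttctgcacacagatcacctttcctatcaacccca

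The Ep400 promoter had 33 CpG in 300 bases, a ratio of observed to expected CpG of 0.94, and its called region reached a maximum signal of 94. The Slain2 promoter had 32 CpG and a maximum of 89. The Fam185a promoter reached the same maximum of 89 with 11 CpG and a ratio of 0.61. The promoter of Msx1, a homeobox gene of limb and craniofacial development, had 29 CpG and a ratio of 0.79, with a maximum of 19. No interval overlapped the promoter of Pdx1, a homeobox gene of the pancreas (11 CpG, ratio 0.48), or that of Alb, the albumin gene of the liver (3 CpG, ratio 0.27). The called region of highest total signal also spans 3 microRNA hairpins inside Mcm7, whose mature sequences are given with the seed (bases 2 to 8) in capitals. miR-93-5p and miR-106b-5p have the seed AAAGUGC in common, and that of miR-25-3p is AUUGCAC.
miR-93-5p: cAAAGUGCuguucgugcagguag
miR-106b-5p: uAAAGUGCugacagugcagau
miR-25-3p: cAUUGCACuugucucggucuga

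Chromosome 5 had more intervals for its gene content than any other autosome. Over its 148.7 Mb between the outermost genes or intervals it held 16.9 intervals per Mb, second of 19 autosomes after chromosome 11 with 20.5, whereas it ranked 8 in protein-coding genes per Mb (8.37). The ratio of intervals to protein-coding genes was 2.02, the highest of the autosomes, followed by 1.52 on chromosome 11 and 1.41 on chromosome 1. The intervals covered 7.83 Mb, or 5.26% of that span, against 6.97% on chromosome 11 and 4.64% on chromosome 19. Their median width was 2608 bp, compared with 2431 bp on the other chromosomes, and widths ran from 3 to 21342 bp. Of the called regions, 370 (18.0%) were split into 2 or more intervals, up to 7, and 782 intervals (31.1%) did not contain the maximum of their own region.

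Signal differed in its breadth and its height. Total signal, the area under the coverage of a called region in the authors' own units, had a median of 34041 (95% interval of the median 32775 to 35493, n = 2057 regions), against 28658 (28353 to 28973, n = 17090) elsewhere in the list. Maximum signal, the height of the coverage, had a median of 22 (21 to 23) against 27 (27 to 27) elsewhere, the lowest of the 19 autosomes. Over all its regions pooled, the chromosome thus had more area and a lower top. This does not hold for regions with their maximum at gene ends, whose median maximum was 43 against 37 on the other autosomes. The list begins at a total signal of 15316, and the lowest 3 called regions of chromosome 5 stood at 15337, 15352 and 15368.

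**Figure D1:**
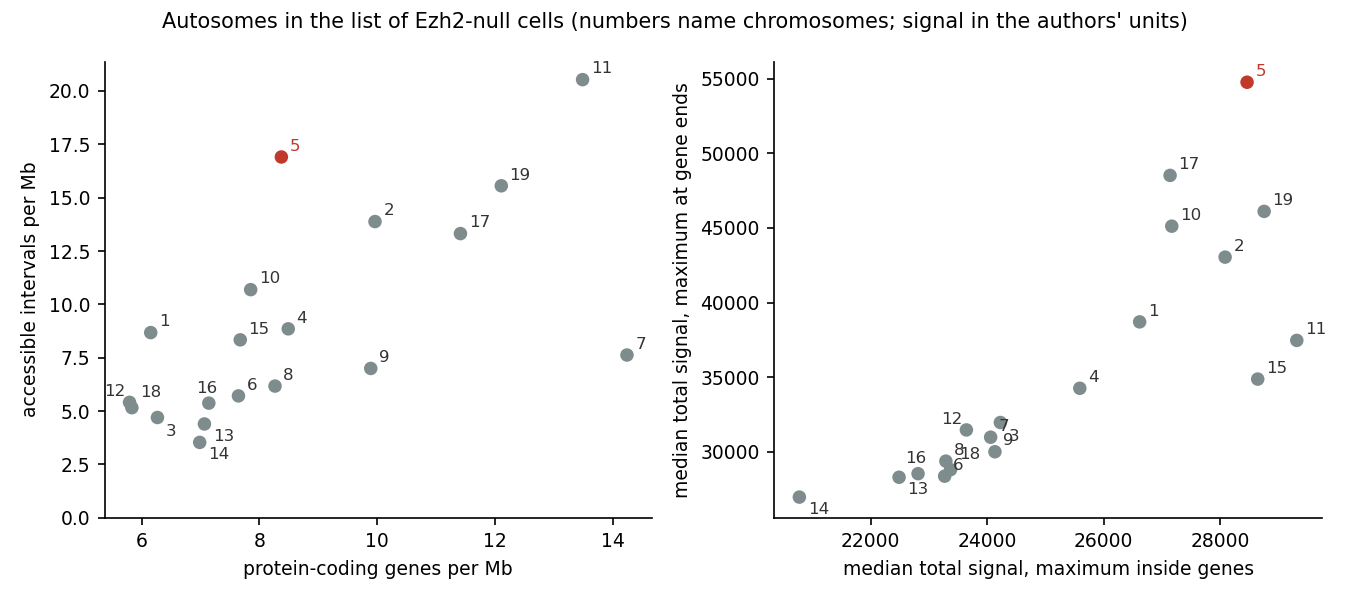
Left, accessible intervals per Mb against protein-coding genes per Mb, 1 point per autosome. Right, the median total signal of called regions with their maximum at gene ends against that of regions with their maximum inside genes, in the authors' units. Chromosome 5 (red) stands at 16.9 intervals per Mb with 8.37 genes per Mb, and at a median total signal of 54781 at gene ends.

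Of the 1245 protein-coding genes of chromosome 5, 802 (64.4%, exact 95% binomial interval 61.7 to 67.1) had an interval within 1000 bp of either end of the gene. The share over all 21779 protein-coding genes of the genome was 47.7%, and over those of the other chromosomes 46.6%. The other chromosomes include X, with 11.9% of 963 genes, and Y, with 0 of 256. Over the other autosomes alone the share was 49.0%. No autosome had a higher share, and next came chromosomes 11 and 19, which both stood at 60.7%. With intervals above the upper quartile of total signal (45461.5) alone, 44.9% of the genes of chromosome 5 had one. The other chromosomes then stood at 18.2%, the other autosomes at 19.3%, chromosome 19 at 37.2% and chromosome 11 at 32.6%. Among the 1057 genes whose strand was known, 60.2% had an interval at the start end and 24.7% at the other end. The same shares on the other chromosomes were 44.0% and 12.7%, and over all chromosomes 44.9% and 13.5%. Of the 687 stranded genes with an interval, 426 had it at the start end alone, 51 at the other end alone and 210 at both, in 52 of these by a single interval.

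Gene ends and distal sites differed in height. By the midpoint of the interval, 550 intervals (21.9%) lay within 1000 bp of a gene end, 1136 (45.2%) farther inside a gene and 828 (32.9%) between genes. These places refer to protein-coding genes only, so an interval between genes can lie at or in a non-coding gene. Gene ends make up 3.11% of the span, so their density was 119 intervals per Mb, 18.0 per Mb inside genes and 10.2 per Mb between genes. The gene-end share of intervals was the lowest of the autosomes, whereas the share of genes that had one was the highest. Called regions with their maximum at a gene end (576) had a median total signal of 54781 (50886 to 59350) and a median maximum of 43 (42 to 45). Such regions of the other autosomes (6936) had 34303.5 and 37. Regions with their maximum inside a gene (814) had a median maximum of 18 (17 to 19), against 21 on the other autosomes, and those between genes (667) had 19 (18 to 20), against 21. Chromosome 5 ranked first of 19 in maximum at gene ends, level with chromosome 17, and last in both other places. Regions with their maximum at gene ends made up 28.0% of the regions of chromosome 5 and 40.9% of those of the other autosomes. The part of this share in the lower median maximum of the whole chromosome was not tested.

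Intervals between protein-coding genes were mostly far from the ends of such genes. Distances to non-coding genes were not taken. The median distance of the between-gene intervals to the nearest gene end was 15093 bp, 508 of 828 (61.4%) lay farther than 10000 bp, and 67 (8.09%) farther than 100000 bp. Relative to listed start sites, 301 of 2057 maxima (14.6%) lay within 100 bp and 458 (22.3%) within 250 bp, of which 314 were upstream and 143 downstream. The median maximum was 45 within 100 bp, 48 at 100 to 250 bp and 46 at 250 to 1000 bp. Regions at 1000 to 10000 bp had 18, those at 10000 to 50000 bp had 18, and those beyond 50000 bp had 19. The height was thus about level up to 1000 bp from a start site, and again about level, at a lower value, beyond it.

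**Figure D2:**
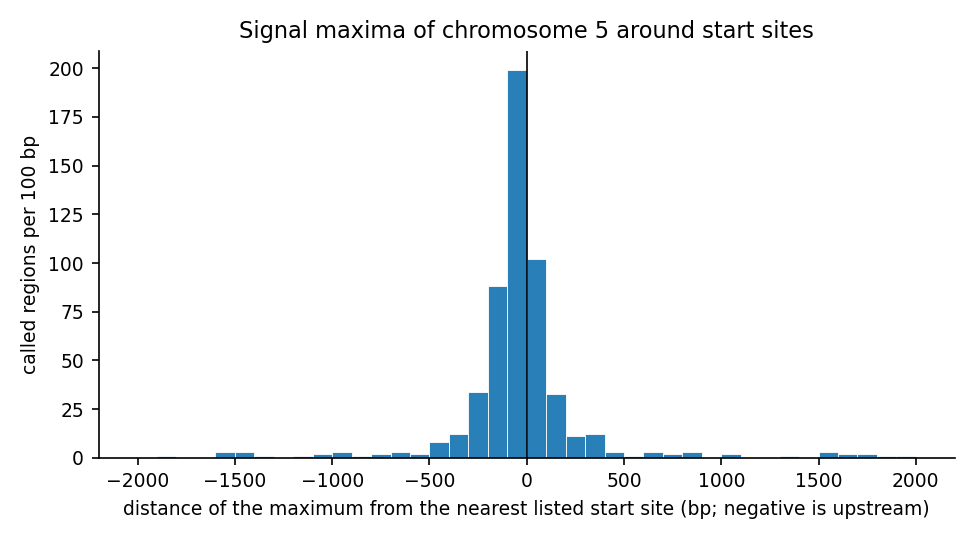
Number of called regions of chromosome 5 by the distance of their maximum from the nearest listed start site of a protein-coding gene, in steps of 100 bp, negative values upstream. The tallest bar, the 100 bp upstream of the start, holds 199 maxima.

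The share of promoters with an interval was higher in CpG-rich than in CpG-poor classes, on chromosome 5 as on the others, and in each class it was higher on chromosome 5. Of 1273 promoters of 300 bases belonging to the 1057 genes, 743 (58.4%) overlapped an interval, against 44.6% over all 21263 promoters. The median ratio of observed to expected CpG was 0.82 in promoters with an interval and 0.28 in those without. In 5 classes of rising CpG ratio, the share with an interval was 12.4, 21.2, 46.6, 76.5 and 88.5%, while the other chromosomes had 6.27, 14.8, 38.9, 64.6 and 79.9%. The binomial intervals of chromosome 5 and the rest overlapped in the classes of 0.2 to 0.4 and 0.4 to 0.6 and were apart in the other 3. GGGCGG, the GC box, occurred on either strand in 70.9% of the promoters with an interval and 26.4% of those without (52.4% of all promoters of the chromosome). CGGAAG, a core of ETS factor sites, occurred in 37.0% and 8.87% (25.3% of all). TATAAA, the TATA box, went the other way with 4.71% and 13.6% (8.41% of all), as did TGACTCA, the AP-1 site, with 2.29% and 8.68% (4.95% of all). CCAAT was at 36.6% and 37.4% (36.9% of all). CACGTG, the E-box of Myc and related factors, was at 11.3% and 7.92% (9.90% of all). These motifs were searched as exact letters on both strands. None contains another, but the end of GGGCGG can be the start of CGGAAG. Promoters with an interval also had a higher median GC content, 63.7% against 51.2%, whose part in these shares was not tested.

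**Figure D3:**
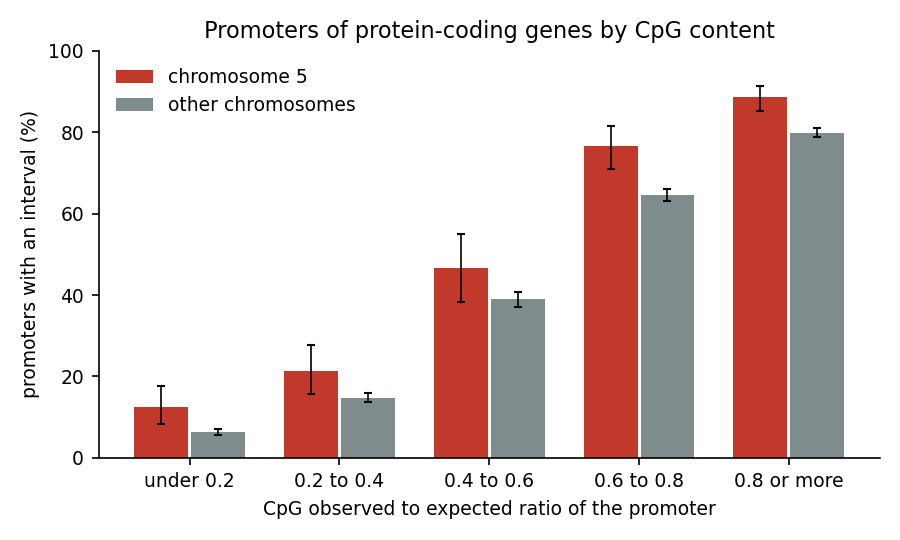
Share of promoters of protein-coding genes that overlap an interval, in 5 classes of observed to expected CpG ratio, for chromosome 5 (red) and the other chromosomes (grey). Error bars are exact 95% binomial intervals. Chromosome 5 is at 88.5% and the others at 79.9% in the class of highest CpG ratio.

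Intervals were concentrated in the distal part of the chromosome and in a smaller segment between 20 and 40 Mb. In bins of 10 Mb, that at 130 to 140 Mb held 404 intervals and that at 140 to 150 Mb held 367, followed by 30 to 40 Mb with 315, 110 to 120 Mb with 305 and 120 to 130 Mb with 289. The 4 bins from 110 to 150 Mb thus held 1365 intervals (54.3%). The sparsest were 10 to 20 Mb with 15 and 80 to 90 Mb with 19. Bins with like numbers of genes could differ. The bin at 80 to 90 Mb had 55 protein-coding genes, of which 9 (16.4%) had a gene-end interval, whereas in the bin at 70 to 80 Mb, with 53 genes and 80 intervals, 31 (58.5%) had one. Intervals per gene rose from 0.35 at 80 to 90 Mb to 2.96 at 140 to 150 Mb. The height of gene-end regions varied little between the gene-rich bins, with median maxima of 43, 44, 43, 43 and 44 at 30 to 40, 110 to 120, 120 to 130, 130 to 140 and 140 to 150 Mb.

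**Figure D4:**
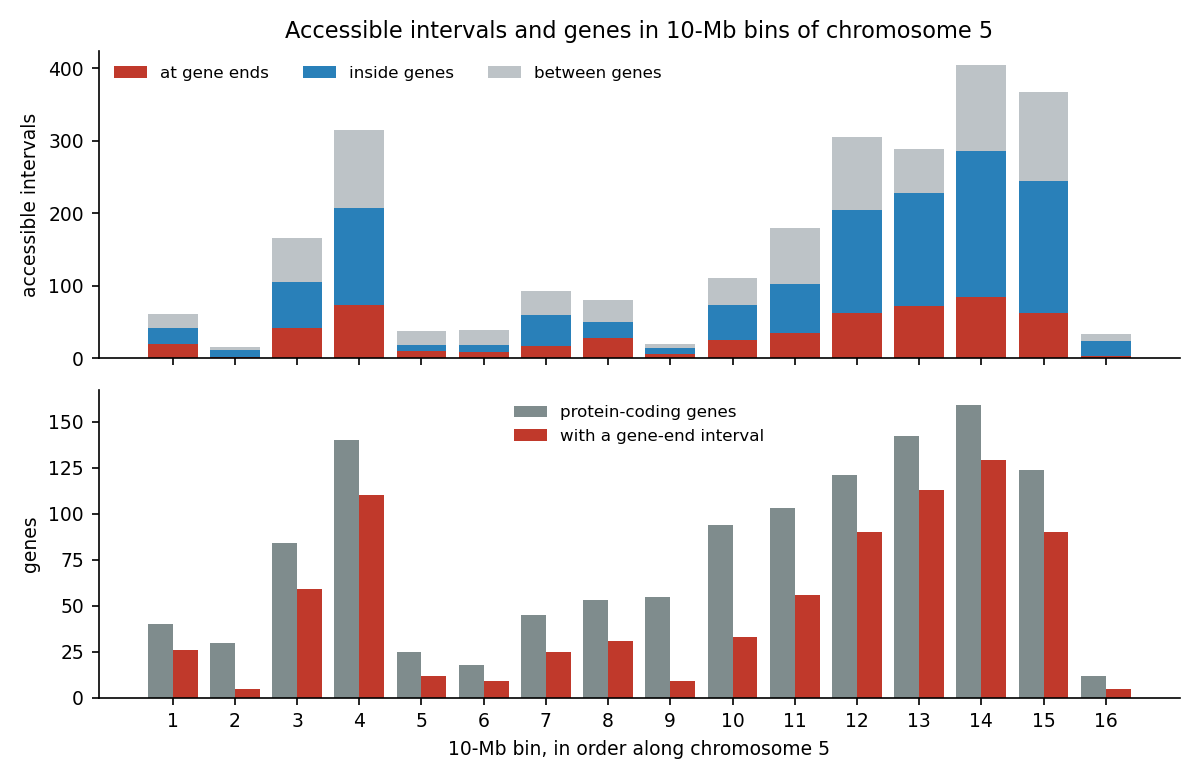
Upper, number of intervals in each 10-Mb bin in order along chromosome 5, divided into those at ends of, inside and between protein-coding genes. Lower, protein-coding genes in each bin (grey) and those with a gene-end interval (red). Bins 14 and 15 hold 404 and 367 intervals, and bin 2 holds 15.

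In bins of 1 Mb the median was 10 intervals, 37 of 149 bins had none, and the 20 densest held 1057 intervals (42.0%). Spearman's rho between intervals and protein-coding genes was 0.80 over the 149 bins, which share 1 chromosome and 1 list and are not independent. Bins of like gene content held more on chromosome 5 than on the other autosomes pooled. The richest bins of chromosome 11 held as many by the mean but fewer by the median. On chromosome 5 the 34 bins with 10 to 19 genes held 29.9 ± 19.1 intervals (SD over bins), against 14.0 ± 13.4 in 446 bins of the other autosomes and 25.7 ± 28.5 in 26 bins of chromosome 11. Its 18 bins with 20 or more genes held 42.4 ± 13.9, against 25.2 ± 21.1 in 249 bins of the other autosomes, 42.2 ± 31.0 in 31 bins of chromosome 11 and 37.3 ± 24.9 in 9 bins of chromosome 19. The medians of these richest bins were 43 on chromosome 5, 21 on the other autosomes, 23 on chromosome 11 and 39 on chromosome 19. For 10 to 19 genes they were 28 on chromosome 5, 11 on the other autosomes and 13 on chromosome 11. In bins without a gene the means were alike, 0.35 ± 0.81 and 0.40 ± 1.30. These spreads are between bins of 1 list, and the differences from the other autosomes in the 2 gene-rich classes were of about their size.

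The densest bin was 139 to 140 Mb, with 89 intervals that covered 28.9% of it. An interval lay at an end of all 19 of its protein-coding genes. They include 3110082I17Rik, Cox19 (an assembly factor of cytochrome oxidase) and Cyp2w1, which lie at 1 called region of total signal 197909, Gpr146 (183860), Ints1 (172991), a subunit of the Integrator complex, and Mafk (105977), a small Maf transcription factor. Prkar1b, a regulatory subunit of protein kinase A, and Dnaaf5 lie at 1 region with a total of 101778 and a maximum of 69. Genes at the same called region cannot be told apart.

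The bin at 35 to 36 Mb held 61 intervals over 12 genes, so that it had 5.08 intervals per gene. Afap1, an actin-binding protein, lies at a region of total 207975 and maximum 78, and Hgfac and Dok7 at one of 196363 and 25. Cpz, Acox3, Sh3tc1 and Lrpap1 followed with totals from 53297 to 123236. No interval lay at the ends of Adra2c, Hmx1 and Htra3.

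The neighbouring bins of 134 to 135 and 135 to 136 Mb, with 56 and 60 intervals, contain genes whose human counterparts are deleted together in Williams syndrome. In the first, 17 of 18 genes had a gene-end interval. Rcc1l and Gtf2ird2 lie at a region of total 147306, Gtf2i (a general transcription factor) had 132430, Syna and Clip2 103543, Limk1 (the kinase of cofilin) 92768, Eif4h (a translation factor) 76555, and Rfc2 (a subunit of the clamp loader of replication) 66491. Cldn3, a claudin gene, had none, whereas the claudin genes Cldn4 (31344) and Cldn13 (43920) of this bin each had one. In the second, 21 of 27 genes had one. Ssc4d stood at 227907, Rhbdd2 at 131059, Por (the reductase of cytochrome P450 enzymes) and Tmem120a at 122693, Abhd11 at 119845, Baz1b (a remodeller subunit) and Fzd9 (a Wnt receptor) at 111488, and Hip1 at 108361. The bin at 140 to 141 Mb held 57 intervals, and 14 of its 15 genes had one, led by Ttyh3 (200299), Iqce and Brat1 (163358 for both), Grifin (111657), Amz1 (93945), Snx8 (88148), Chst12 (87207) and Lfng (85522).

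Empty stretches covered much of the rest. Gaps of over 1 Mb between neighbouring intervals numbered 23 and added up to 55.9 Mb, with 128 protein-coding genes wholly inside them, although the median gap was 11600 bp. The longest, chr5:54161174-63754916 (9.59 Mb), holds 4 genes, Pcdh7 (a protocadherin), Arap2, Dthd1 and G6pd2. The next, chr5:14271744-20652539 (6.38 Mb), holds 19 genes, the longest being Cacna2d1, Pclo, Sema3c, Cd36 and Gnai1, and includes 5 of the tandem Speer4 genes. Epha5, Tecrl and Gm42163 lie in the last of the 3 longest, chr5:81611627-86063019 (4.45 Mb). A gap need not be gene-poor. The bin at 87 to 88 Mb has 20 genes and no interval, and consists chiefly of the Ugt2 glucuronosyltransferases, the Sult1 sulfotransferases and the casein genes. The bins at 94 to 95 and 95 to 96 Mb have 12 and 14 genes and no interval, and consist chiefly of the tandem Pramel genes.

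The called region of highest total signal, 364361 with a maximum of 56, spans chr5:138157878-138198709 in 7 pieces over Cops6, Mcm7, Ap4m1, Taf6, Cnpy4 and Mblac1. Its maximum lies at -59 bp from the start of Mcm7, a subunit of the replicative helicase. The next was that of Arpc1b, Pdap1 and Bud31 at chr5:145109458-145145776, with a total of 311689 and a maximum of 50 at -35 bp from the start of Pdap1. The 10 highest also included those of Tnrc18 (269405), of Agbl5, Ost4, Emilin1 and Khk (262893), of Fbxl18 and Actb (257731), of Ppp1r35, Mepce and Zcwpw1 (253806), of Rita1, Ddx54 and Cfap73 (239297), of Dhx37 (238082), and of Chpf2 and Smarcd3 (234509). The widest interval, 21342 bp, was that over Rita1, Ddx54 and Cfap73, and Ttyh3 had the fifth widest with 17673 bp. All of these regions overlapped genes.

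The order by maximum was another one. Stard13, a GTPase-activating protein, stood highest with 98, from a region of 6257 bp at chr5:151366396-151372652 that lies inside the gene and far from its ends. Limk1 had 96, Ep400 94, Slain2 and Fam185a 89, Tbl2 88, Cox18, Mxd4 and Caln1 87, and Fam53a 86. Of these 10, the regions of Stard13 and Caln1 were distal by the listed start sites and gene ends, and both genes lacked a gene-end interval. No region was among the 10 highest by both measures.

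Several long genes carried many intervals in their bodies. Prkag2, a regulatory subunit of AMP-activated kinase, held 16 intervals more than 1000 bp from any gene end, which came from 11 called regions. These 16 intervals together amounted to 19.5% of the 243548 bp of Prkag2. Mad1l1, a spindle checkpoint protein, also held 16, Ttc28 15 and Stard13 14. The density was 6.57 per 100 kb in Prkag2, 5.11 in Mad1l1, 3.66 in Ttc28 and 3.58 in Stard13. The median maximum inside the gene was 29 in Prkag2, 17 in Mad1l1, 17 in Ttc28 and 21 in Stard13. Over all regions of the chromosome with their maximum inside a gene it was 18.

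Gene groups differed widely in how many members had a gene-end interval, beside the 64.4% of the chromosome and the 47.7% of all genes. The widely expressed groups were near complete. Of the replication, cell cycle and repair genes 26 of 27 had one, led by Mcm7 (364361), Rfc5 (164518), Ung (134582), the uracil glycosylase of base excision repair, and Cdk5 (106097). Rfc1 had none at its ends and 1 interval over the gene. Of the housekeeping genes 29 of 31 had one, among them Actb (257731), Hnrnpdl (137502) and Cct6a (136717), a chaperonin subunit, and Hspb1 and Psmd9 had none. Of the chromatin regulators 20 of 22 had one, led by Mepce (253806), the capping enzyme of 7SK RNA, Setd1b (198953), a histone H3 lysine 4 methyltransferase, and Ep400 (189248), the ATPase of a remodelling complex. The median maximum of these 3 groups was 54, 48 and 51.5, against 43 over all genes of the chromosome with an interval.

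The list named for fibroblast matrix, adhesion and cytoskeleton genes stood at 21 of 24. It also has genes of other kinds, such as Fosl2, Il6 and Fzd1, and whether its share is particular to fibroblasts was not tested. Arpc1a and Arpc1b, subunits of the Arp2/3 complex that branches actin, lie at 1 region of 311689. Pxn, the focal adhesion protein paxillin, had 183070 and Fosl2, an AP-1 factor, 162832. Spp1, osteopontin, had the lowest total of the group, 18015. No interval lay at the ends of Anxa3, Col26a1 and Limch1, although 2, 4 and 7 intervals lay over these genes.

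Developmental regulators stood at 11 of 28 (39.3%, 21.5 to 59.4), with a median maximum of 19. With a window of 2500 bp the list stood at 60.7% (40.6 to 78.5), an interval that holds the chromosome's 67.8% with that window. Foxk1 (117316, maximum 48) and Insig1 (93611, maximum 79) were the highest, and both are known for metabolic control besides development. Lfng, a glycosyltransferase that modifies Notch, had a maximum of 24, Gbx1 16, and Shh, a secreted morphogen, 16. No gene-end interval was listed for Barhl2, Bmp3 and Cdx2, or for 14 others of the list. Counting any interval over the gene, 17 of 28 had one.

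Receptor tyrosine kinases and growth factors stood at 7 of 17. Fgfrl1, a decoy receptor for fibroblast growth factors, had a total of 157919, Pdgfa, a ligand of platelet-derived growth factor receptors, 149660, Flt1, a receptor of vascular endothelial growth factor, 71520, and Fgfr3 68376. Areg, Btc and Epha5 had none. The adjoining receptors Pdgfra, Kit and Kdr had none at their ends either, and 2 intervals lay inside Pdgfra (these receptors were singled out after their values were seen).

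Among the tissue-restricted groups the shares ran from 26.7 to 40.9%. Of the neuronal genes 8 of 28 (28.6%, 13.2 to 48.7) had a gene-end interval, led by Galnt17 (84312), Stx1a (83712), a SNARE protein of synaptic vesicle release, Magi2 (82862) and Sema3e (41793), while Adra2c, Cacna2d1 and Dpp6 had none. In Magi2, Crmp1 and Uchl1 the interval lay at the other end of the gene alone, not at the start end. Blood and immune genes stood at 9 of 22, led by Sh2b3 (159911), an adaptor of cytokine signalling, Selplg (64885), Ncf1 (57890) and Lat2 (52607), with none at Cd36 and Epo. Liver genes stood at 4 of 15, with none at Afm, Afp and Alb. Their highest was Cyp3a41a (233819), a value that is uncertain because Cyp3a41a and Cyp3a41b are near-identical copies, and Aldh2 (38469), Hpd (38421) and Acads (23603) followed. Cyp3a41a and Hpd had their interval at the other end of the gene alone, not at the start end. The interval of Cyp3a41a did not contain the maximum of its region. Among others, the same held for the interval taken for Mcm7, Rfc5, Pdgfa, Pxn, Arpc1a, Arpc1b, Lfng, Ncf1 and Lat2. Their values are those of the whole called region, and another interval at the same gene may hold the maximum. The intervals taken for Arpc1a, Lfng and Selplg lay beside the gene and not over it.

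Families taken by the start of the gene symbol, and the bone and tooth matrix genes, differed from one another. Some lie in tandem, whereas the Rfc, Rpl and Zfp genes are spread along the chromosome. Over all 114 members 42 (36.8%) had an interval, but none of 5 casein (Csn), 10 Ugt2, 7 Tmprss11 protease, 5 Gbp and 4 Gabr genes did. Of 8 Cxcl chemokine genes only Cxcl1 did (64635), and of 11 Oas genes 3. In contrast all 3 Steap genes did, metalloreductases led by Steap1 (107850), and 15 of 19 Zfp zinc finger genes did, led by Zfp605 (146819) and Zfp316 (144965). Rfc5 (164518), named above, also counts here. Reads of near-identical family members may have been placed on one copy or discarded, which the sources used here do not state.

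**Figure D5:**
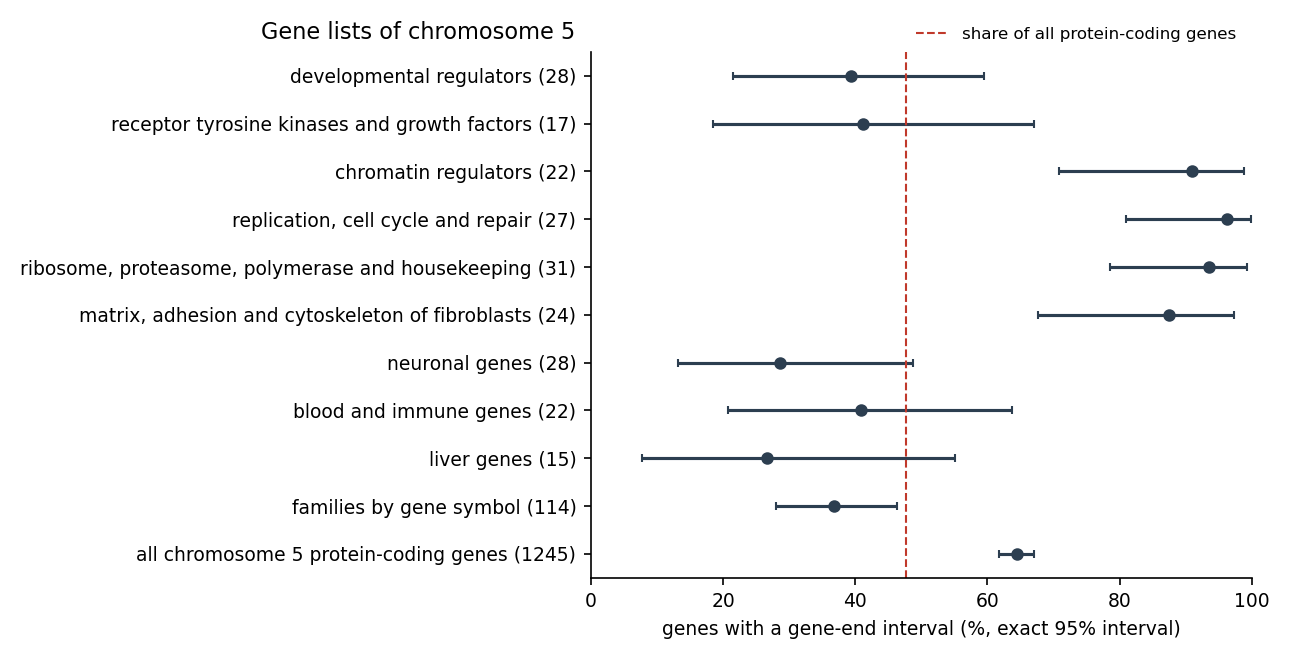
Share of the members of each gene list of chromosome 5 that had a gene-end interval, with exact 95% binomial intervals that cover counting over genes only. Numbers in brackets are the members, and the dashed line is the 47.7% of all protein-coding genes. Replication genes stand at 96.3% and liver genes at 26.7%.

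Polycomb genes of the chromosome were accessible at their ends except Auts2. Ctbp1, a corepressor, had a total of 129686 and a maximum of 50, Pcgf3, a subunit of Polycomb repressive complex 1, 66561 and 53, and Kdm2b, a demethylase that recruits that complex to CpG islands, 41375 and 19. Auts2, a neuronal gene whose product joins a variant of that complex, had none at its ends and 8 intervals over the gene. At Ezh2 itself, on chromosome 6, an interval at chr6:47593609-47596498 had a total of 40464 and a maximum of 61. An accessible promoter does not bear on whether the gene makes protein, so that this interval is no check of the genotype label. Of the fibroblast markers of the whole genome 9 of 14 had a gene-end interval, among them Col1a1, Col1a2, Col3a1, Vim and Twist1, and Fap, Pdgfra, Thy1, Dcn and Lum had none. None of 4 endothelial, 4 blood and 2 pluripotency markers had one, and 1 of 5 epithelial (Krt8) and 1 of 3 neuronal (Rbfox3) markers did. Beside these short lists, 47.7% of all protein-coding genes and 64.4% of those of chromosome 5 had a gene-end interval.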

How the data were processed

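ATAC-seq of 6 samples in 3 groups of 2 was grouped by the genotype and treatment labels, and the 1 list used is that of the Ezh2 -/- group. Bowtie2 2.2.9, deepTools, SEACR and the build mm10 are named per the submitters' processing notes, without roles or order. The calling threshold, any control, duplicate removal, any shift for the transposase and the merging of replicates are not stated in any source used here, and each can change the number and width of intervals. The list has 6 columns and no header. Column 4, total signal, was deposited as a score in the authors' own unit, and column 5, maximum signal, was deposited as a signal without a stated normalization. Rows equal in columns 1, 4, 5 and 6 were collapsed to called regions. The total and maximum of a gene are those of the called region of highest total within 1000 bp of its ends.

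Genes came from a RefSeq table of GRCm38.p6. It lists 108 protein-coding genes (24 on chromosome 5) before 3 Mb of an autosome or X, where the list has 0 intervals. These positions look like those of unplaced scaffolds, and the genes were left out. Promoters and strands came from the RefSeq promoter table, which matched 1057 of 1245 genes. Members and lists were chosen with earlier results of these data known. The rule names up to 8 genes of each of the 5 densest 1-Mb bins, up to 4 members of each list by total signal with the first 3 by alphabet that lacked an interval, the 10 regions of highest total and of highest maximum, the 5 widest intervals, the 3 longest gaps, the 5 genes with most intervals inside, and the Polycomb genes. A few genes named by this rule are left unreported. Intervals on shares are exact binomial (95%), those of medians from order statistics. Python 3.11.15, numpy 2.4.6, pandas 2.3.3, scipy 1.17.1 and matplotlib 3.10.9 were used. Tested on simulated data, the lookup of gene ends gave another answer than a direct loop for 0 of 400 genes, and that of places for 0 of 600 intervals.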

Additional observations from a re-analysis of the deposited data

How the results depend on the processing

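Of 61 alternative values, 38 stayed within the counting interval or 1.5 times of the reported value and 23 moved. The 64.4% of genes with a gene-end interval became 67.8% with a window of 2500 bp, 56.2% and 44.9% with intervals above the median and upper quartile of total signal, 59.2% with intervals that contain their maximum, and 60.2% at the start end alone. It was 63.2% with the genes listed before 3 Mb kept. The gene-end, inside and between shares of intervals (21.9, 45.2 and 32.9%) became 33.5, 37.3 and 29.2% by any overlap, 14.7, 50.6 and 34.7% with 500 bp, 32.5, 38.3 and 29.2% with 2500 bp, and 28.0, 39.6 and 32.4% by the place of the maximum per called region. Density fell to 10.9 per Mb above the median total signal. The densest 10-Mb bin held 496 intervals instead of 404 with bins shifted by 5 Mb. With 1-Mb bins shifted by 0.5 Mb the densest held 76 instead of 89, so these counts depend on the bin edges. Counting every interval gave median total and maximum signals of 39999 and 24. Developmental regulators rose to 60.7% and replication genes to 100% with 2500 bp, and the families taken by symbol stood at 26.3% above the median total signal. The share of genes on the other chromosomes was 49.0% over other autosomes alone and 47.9% without chromosome 11 as well. The start-end, maximum-place, other-autosome and kept-gene settings were chosen after seeing the data. No paired analysis was possible because the list carries no value per replicate, and for the same reason no replicate could be left out. The depth is unknown, so a gene without an interval is only not called at the authors' threshold.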

Other observations

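Beside the 64.4% of protein-coding genes, the non-coding classes of chromosome 5 ranged widely. Long non-coding RNA genes had one in 241 of 800 cases (30.1%), pseudogenes in 30 of 449 (6.68%) and transcribed pseudogenes in 6 of 31 (19.4%). Among small RNA genes, 8 of 10 tRNA genes, 21 of 58 microRNA genes (36.2%), 10 of 47 small nucleolar RNA genes (21.3%) and 7 of 60 small nuclear RNA genes (11.7%) had one. Many of these lie inside or beside protein-coding genes, so the same interval can count for both. Of the 55 microRNA genes in the sequence table, the hairpins of 15 were overlapped by an interval and 21 lay within 1 kb of one. Besides the 3 hairpins in Mcm7 (chr5:138165321-138165818), these included Mir339 inside 3110082I17Rik in the densest bin, at a called region of total signal 183860, and Mir574 inside Fam114a1, at a region of total 34389 and maximum 30. Mir218-1, inside Slit2, had no interval within 1 kb. These microRNAs were chosen after their values were seen.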
